A study of Mus musculus with 14 samples.

Results

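The CXCL12 axis and stem cell factor were followed through 5 genes of mouse bone marrow stroma: Cxcl12, Kitl, Dpp4, Cxcr4 and Kit. A probe set was taken where its platform gene symbol was exactly one of these names, which gave 14 of the 34945 probe sets with 1 symbol, and 5 of 18193 symbols. Cxcl12 had 3 probe sets, Kitl 4, Dpp4 4, Cxcr4 1 and Kit 2. The choice used no measured value. By mean signal over all arrays, 10 of the 14 lay above the dimmest 33.3% of probe sets, and every one of the 14 was kept.

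Total RNA was hybridised to 14 Affymetrix mouse genome arrays. Mice carried the pOBcol2.3-GFP transgene, in which a fragment of the collagen type I promoter drives green fluorescent protein in cells of the osteoblast lineage, on a C57BL/6J background, and were 6 to 8 weeks old and otherwise wild type. Stromal cells were freed by repeated collagenase digestion and sorted in 2 gates. Osteoblasts were GFP+ and negative for CD45, ter119 and CD31. Endothelial cells were CD31+ and negative for GFP, ter119 and CD45. The 4 groups were untreated osteoblasts (3 arrays), osteoblasts of mice given granulocyte colony-stimulating factor (G-CSF, 250 ug/kg under the skin, 3 arrays), untreated endothelial cells (4 arrays) and endothelial cells after the same G-CSF (4 arrays). The array titles give 5 days of G-CSF, while the protocol text attached to the untreated arrays gives 7 days and names vehicle alone as the control. Both sorts leave out cells that carry CD45, the leukocyte surface protein, and no marker specific to reticular stromal cells was part of either gate. The labels do not say whether replicates came from separate animals, so p-values measure only the spread between these arrays, and the number of arrays limits the precision.

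CXCL12 is the chemokine that holds blood stem cells, B cell precursors and neutrophils in the marrow through its receptor CXCR4. DPP4 (CD26) is a surface peptidase that removes the first residues of CXCL12 and inactivates it. KITL, stem cell factor, is made as a membrane-bound and a soluble form and signals through the receptor tyrosine kinase KIT on stem cells, progenitors and mast cells. In marrow, reticular stromal cells around the sinusoids are the richest source of both ligands, with smaller amounts from endothelial cells and osteoblast-lineage cells, and G-CSF is used in the clinic to move stem cells into the blood.

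The promoters of the 2 ligands and of the CXCL12 receptor are shown because most of the values below concern these genes, and the brightest probe set of each ligand had a high signal on every array. They are RefSeq sequences of build GRCm38.p6, from 250 bases before to 50 bases after the annotated start, written 5′ to 3′ on the gene's strand. Capitals mark GC boxes (GGGCGG on either strand) and the TATA box (TATAAA on either strand), where matches may overlap. The Cxcl12 window is chr6:117168285-117168584 on the plus strand the Kitl window is chr10:100015571-100015870 on the plus strand, and the Cxcr4 window is chr1:128592250-128592549 on the minus strand.
Cxcl12: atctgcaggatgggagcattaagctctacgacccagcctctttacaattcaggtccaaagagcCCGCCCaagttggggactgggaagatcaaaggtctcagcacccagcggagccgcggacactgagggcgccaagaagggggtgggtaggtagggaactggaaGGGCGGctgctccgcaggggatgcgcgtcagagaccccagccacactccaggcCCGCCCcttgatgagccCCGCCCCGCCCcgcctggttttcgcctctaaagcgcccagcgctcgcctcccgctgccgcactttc
Kitl: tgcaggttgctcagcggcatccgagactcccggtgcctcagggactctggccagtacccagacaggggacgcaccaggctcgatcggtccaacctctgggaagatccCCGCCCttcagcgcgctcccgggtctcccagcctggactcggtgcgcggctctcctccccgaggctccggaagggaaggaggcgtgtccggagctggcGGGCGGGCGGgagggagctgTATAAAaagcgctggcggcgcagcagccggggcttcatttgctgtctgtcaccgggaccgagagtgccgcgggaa
Cxcr4: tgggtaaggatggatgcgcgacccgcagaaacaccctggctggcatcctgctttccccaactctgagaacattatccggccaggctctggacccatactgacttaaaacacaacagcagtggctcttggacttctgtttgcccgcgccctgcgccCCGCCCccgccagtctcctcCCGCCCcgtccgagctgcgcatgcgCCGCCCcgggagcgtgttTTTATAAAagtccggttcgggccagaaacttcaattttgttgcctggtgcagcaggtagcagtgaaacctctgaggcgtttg

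The Cxcl12 window held 5 GC boxes and no TATA box, and the Kitl window held 3 GC boxes and 1 TATA box. The Cxcr4 window held 3 GC boxes and a TATA box that matched once on each strand. Over the 32851 promoter windows of the same length, 35.7% held a GC box and 13.6% a TATA box. TTCNNNGAA, a STAT site, was in none of the windows of the 5 members, against 8.3% of all windows. CCCNNGGG, an EBF site, was not in the 3 windows shown but occurred once in the Dpp4 window and once in each of the 2 overlapping Kit windows, against 13.7% of all windows. G and C made up 64.7% of the Cxcl12 window, 68.7% of the Kitl window and 59.3% of the Cxcr4 window, against a median of 52.7%. These are matches of letters and not measured binding.

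The labels of the sorts were set against their markers. The 10 endothelial markers averaged 12.09 to 12.72 on the log2 scale, log2(intensity + 16), in the endothelial sort and 8.42 to 9.28 in the osteoblast sort, and all 10 were lower in untreated osteoblasts. Osteoblast genes were bright in both sorts: the 6 measured averaged 12.20 to 14.04 in the osteoblast sort and 8.51 to 12.51 in the endothelial sort. Only 1 of these 6, Alpl, was called higher in untreated osteoblasts, and Col1a1, the collagen whose promoter drives the transgene, was not (0.39 ± 0.69, limma adjusted p = 0.769). After G-CSF 5 of the 6 were called higher in osteoblasts, Col1a1 among them (2.24 ± 0.69, limma adjusted p = 0.0312). Of all genes 17.6% were called between the untreated sorts and 21.8% after G-CSF. Untreated osteoblast replicate 2 stood apart from the other arrays of its group. Its neutrophil list mean was 14.38 against 11.36 and 11.07, and its B lineage mean 9.02 against 6.43 and 7.07. Neutrophil genes were also bright in the other 3 groups. Their list mean was 13.45 to 14.18 in treated osteoblasts, 12.69 to 13.37 in untreated endothelial cells and 13.49 to 14.19 in treated endothelial cells. Untreated endothelial replicate 1 carried muscle genes, with a muscle list mean of 12.82. Osteoblast replicates 2 and 3 were deposited with more decimals than the other arrays. The arrays were kept at the level of the deposited values, and scaling each array to its median instead would move every G-CSF change in endothelial cells by 0.16 and every difference of untreated osteoblasts from untreated endothelial cells by -0.15 (-0.28 after G-CSF), so the split of calls into higher and lower depends on the scaling. In endothelial cells 45 probe sets were called higher and 111 lower after G-CSF, against 85 and 58 with the median scaling. For the mean over both sorts the split was 177 and 155, against 270 and 107. For osteoblasts over endothelial cells it was 3442 and 2504 against 2548 and 3312 when untreated, and 4418 and 2855 against 2847 and 4933 after G-CSF.

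The mean Cxcl12 signal was lower after G-CSF in both sorts with both bright probe sets. The fall was called in endothelial cells for 1 of the 2 probe sets, where it came to 2.11-fold. In osteoblasts both probe sets were 1.47-fold lower, which did not pass the test over all probe sets. A call here and below is an adjusted p under 0.05 in limma, with Benjamini-Hochberg adjustment over the 34945 probe sets.

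With probe set 1448823_at, untreated osteoblasts gave Cxcl12 intensities of 34206, 26336 and 31698, and osteoblasts after G-CSF gave 17157, 21773 and 24197. The treated and untreated osteoblast arrays did not overlap. The log2 change was -0.55 ± 0.22 (SE, 3 against 3 arrays), with a limma adjusted p of 0.519. The exact permutation test over arrays gave 0.1, the smallest 2-sided p that 3 against 3 arrays allow. In osteoblasts 24 of all probe sets were called, which is 0.0687%, and none of the 14 members was among them, while 4 members had an unadjusted limma p under 0.05, as did 2799 of all probe sets (8.01%). With the replicate number as a block 30 of all probe sets were called higher and 17 lower, again with no member.

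In endothelial cells the same probe set gave 11717, 13346, 8873 and 10106 untreated and 6185, 4869, 4753 and 4938 after G-CSF. Every treated array lay below every untreated one. Cxcl12 fell by 1.08 ± 0.19 on the log2 scale (4 against 4 arrays), with a limma adjusted p of 0.0221 and an exact permutation p of 0.0286, the smallest possible. It was the only one of the 14 members called in this comparison, in which 0.446% of all probe sets were called. The call was lost on leaving out untreated replicate 1 (adjusted p = 0.106), untreated replicate 4 (0.0668), or G-CSF replicate 2 (0.0803), 3 (0.0615) or 4 (0.0535), while the change stayed between -1.11 and -1.04. With median scaling the change was -0.92, with an adjusted p of 0.0479.

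Probe set 1417574_at read 31134, 22389 and 24535 in untreated osteoblasts and 18101, 16393 and 18254 after G-CSF. The osteoblast groups again did not overlap, and the log2 change was -0.55 ± 0.23 (limma adjusted p = 0.531, exact p = 0.1). In endothelial cells it read 20412, 22329, 16321 and 19546 untreated and 14166, 17059, 10735 and 14719 after G-CSF. Here 1 treated array, replicate 2, lay above the lowest untreated array, and the change was -0.48 ± 0.20 (limma adjusted p = 0.408, exact permutation p = 0.0571).

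Averaged over both sorts, which share no array, the log2 change of Cxcl12 was -0.81 ± 0.15 with 1448823_at (limma adjusted p = 0.0131, exact p = 0.00143, the smallest possible). It was -0.52 ± 0.15 with 1417574_at (adjusted p = 0.125, exact p = 0.00286). With the replicate number as a block the second value also passed, at an adjusted p of 0.0244, and it passed without untreated osteoblast replicate 2 (0.0489) and with 1 probe set per gene and the dimmest 33.3% left out (0.0467). Of all probe sets 0.950% were called for this mean, and 1 of the 14 members was.

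**Figure D1:**
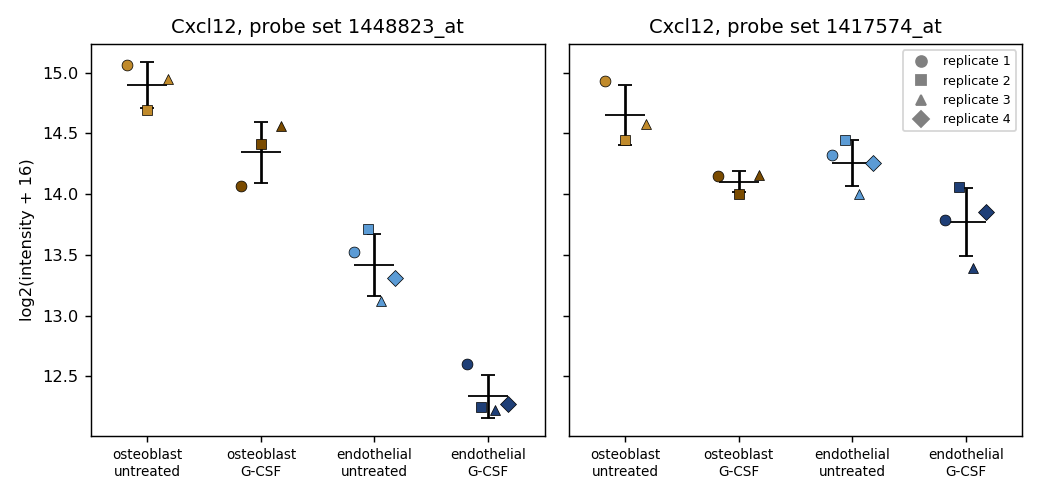
Cxcl12 signal as log2(intensity + 16) on each of the 14 arrays for probe sets 1448823_at and 1417574_at; points are arrays with the marker shape giving the replicate number, and bars give the group mean and SD. In both panels G-CSF arrays sit lower within each sort, and the endothelial groups of 1448823_at do not overlap (13.12 to 13.71 untreated, 12.22 to 12.60 treated); levels are not comparable between the 2 panels.

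The osteoblast sort gave the higher Cxcl12 signal with 1 of the 2 bright probe sets. With 1448823_at the groups stood in the order untreated osteoblasts, treated osteoblasts, untreated endothelial cells and treated endothelial cells, with no overlap between neighbours, although the first pair did not pass the test and the middle pair was not tested. Untreated osteoblasts exceeded untreated endothelial cells by 1.49 ± 0.21 on the log2 scale, or 2.81-fold (limma adjusted p = 8.68e-05). After G-CSF the difference was 2.01 ± 0.21, or 4.03-fold (limma adjusted p = 2.97e-06). With 1417574_at the same differences were 0.40 ± 0.21 (adjusted p = 0.229) and 0.33 ± 0.21 (adjusted p = 0.316), neither called. With 1 averaged value per gene, which includes the dim probe set, the calls were lost: the differences were 0.49 (adjusted p = 0.237) and 0.63 (0.107). Between the sorts 17.0% of all probe sets were called when untreated and 20.8% after G-CSF.

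The 2 bright probe sets of Cxcl12 gave different sizes of change in endothelial cells. The log2 difference of 1448823_at minus 1417574_at within each array describes this. It was chosen after the values had been seen, so no test of it is reported. Only its change between groups has a meaning. In osteoblasts it was 0.14, 0.23 and 0.37 untreated and -0.08, 0.41 and 0.41 after G-CSF, and the groups overlapped. In endothelial cells it was -0.80, -0.74, -0.88 and -0.95 untreated and -1.19, -1.81, -1.17 and -1.57 after G-CSF. Every treated endothelial array lay below every untreated one, with a mean difference of -0.59, which restates the 2 changes given above. Between the sorts the within-array difference was higher in osteoblasts by 1.09 when untreated and by 1.68 after G-CSF. Which Cxcl12 transcripts each probe set reads is not given in the sources used here.

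**Figure D2:**
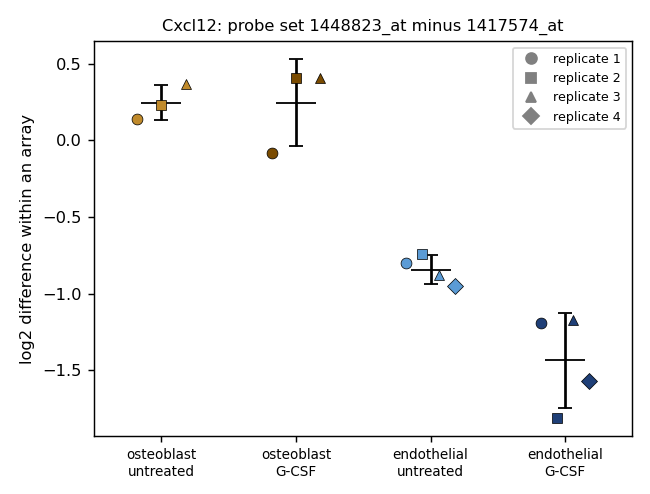
Within-array log2 difference between the Cxcl12 probe sets 1448823_at and 1417574_at in the 4 groups; points are arrays, bars are the mean and SD, and the position of 0 has no meaning because 2 probe sets are set against each other. Endothelial arrays run from -1.81 to -0.74 and osteoblast arrays from -0.08 to 0.41.

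The remaining probe set of Cxcl12, 1439084_at, lay in the dimmest 33.3%, at intensities from 4.2 to 113. Its log2 changes of 0.18 ± 0.76 in osteoblasts and 0.20 ± 0.66 in endothelial cells have wide errors. Averaging it with the others, 1 value per gene, gave Cxcl12 changes of -0.31 ± 0.28 in osteoblasts and -0.45 ± 0.24 in endothelial cells, and neither was called (limma adjusted p = 0.846 and 0.579). The mean over both sorts became -0.38 and lost its call (adjusted p = 0.401).

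The difference between the G-CSF changes of the sorts was tested itself. For 1448823_at the change in osteoblasts minus that in endothelial cells was 0.52 ± 0.29 (limma adjusted p = 1), and for 1417574_at it was -0.07 ± 0.30. Across all probe sets 0 were called (0%), with 1700 at an unadjusted p under 0.05 (4.86%) and no member among them. A G-CSF response that is called in endothelial cells is therefore not shown to differ from that in osteoblasts.

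Levels of marker genes of other cells differed between the same arrays as Cxcl12. The 8 non-member genes of the reticular stromal list, which marks the perivascular cells richest in CXCL12, had summed intensities of 21746 to 25672 on untreated endothelial arrays and 8582 to 12747 after G-CSF. Their mean log2 levels were 8.49 to 8.90 and 7.55 to 7.79. In this sort all 8 had negative values and 2 were called, against 0.506% of all genes: Adipoq, the adipokine adiponectin, fell by 3.43 ± 0.23, and Vcam1, an adhesion molecule of stroma and vessels, fell by 1.49 ± 0.20 (limma adjusted p = 3.36e-06 and 0.00214). In osteoblasts the summed intensities were 29307 to 53468 untreated and 29090 to 42276 after G-CSF, all 8 values were negative, and 1 gene was called, against 0.132% of all genes: Adipoq fell by 2.31 ± 0.27 (limma adjusted p = 0.00406). The median over all 10 genes of the list, Cxcl12 and Kitl included, was -0.47 in endothelial cells and -0.58 in osteoblasts, against -0.06 and -0.03 over all genes. Lepr, Foxc1, Ebf3, Pdgfrb and Angpt1, also on the list, were not called in either sort. Averaged over both sorts Il7, the B cell growth factor interleukin 7, was also called and fell by 1.18 ± 0.24 (adjusted p = 0.0256). The osteoblast list had summed intensities of 81603 to 142648 on untreated endothelial arrays and 19575 to 88616 after G-CSF, ranges that overlap. All 6 of its genes had negative values in that sort, with a list median of -1.84, and 1 of them was called. Alpl, the bone alkaline phosphatase, fell by 1.59 ± 0.33 (limma adjusted p = 0.049), and the other 5 were not called. Lists of blood and muscle cells differed between these endothelial arrays as well, with no gene called. The list median was -1.89 for 5 erythroid genes (summed intensity 2826 to 10202 untreated, 549 to 3880 after G-CSF), -1.86 for B lineage, -1.68 for skeletal muscle and 0.98 for leukocyte genes. Averaged over both sorts Klf1 and Gata1, transcription factors of red cell precursors, fell by 2.93 ± 0.51 and 1.96 ± 0.35 (limma adjusted p = 0.0132 and 0.0138). The part of these cells in the Cxcl12 result was not tested, and fewer cells of a type and less RNA per cell cannot be told apart in sorted bulk RNA.

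**Figure D3:**
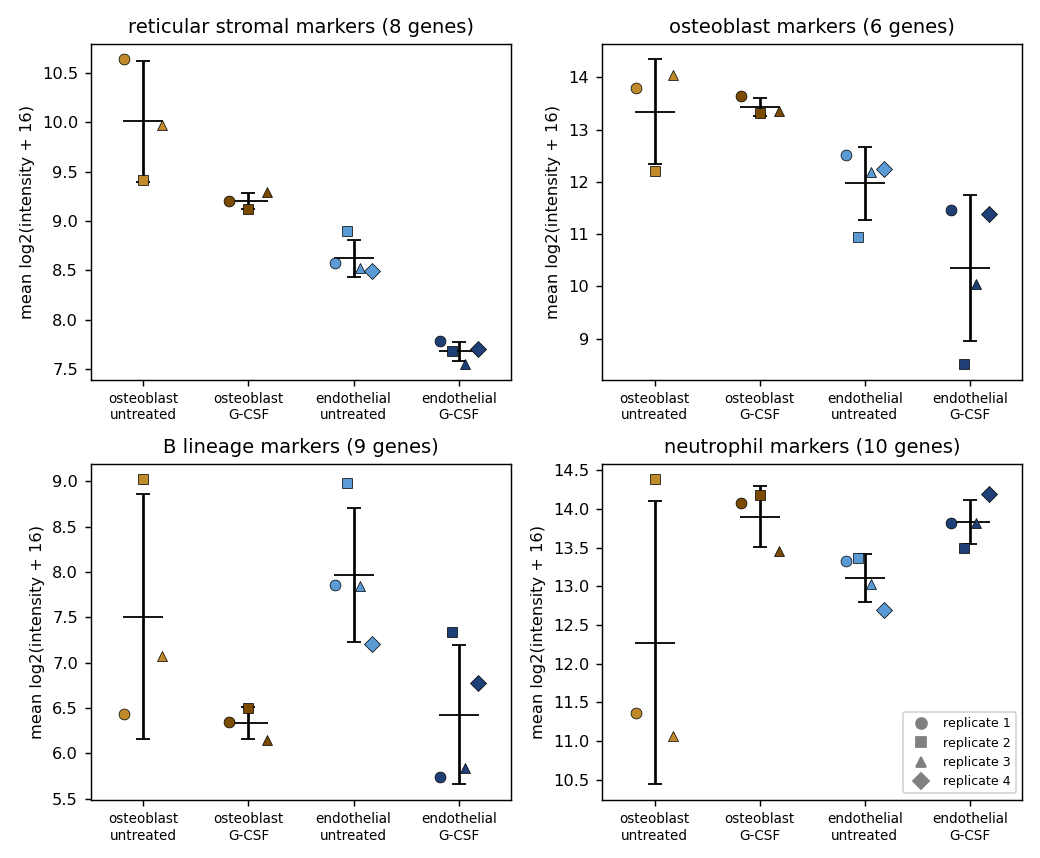
Mean log2(intensity + 16) of 4 marker lists on each array by group; points are arrays with the marker shape giving the replicate number, and bars are the mean and SD. Reticular stromal markers without Cxcl12 and Kitl are lower after G-CSF on all 4 endothelial arrays (7.55 to 7.79 against 8.49 to 8.90), and untreated osteoblast replicate 2 is the highest of its group for B lineage (9.02) and neutrophil (14.38) markers.

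Kitl, the membrane and soluble ligand of KIT, was present in both sorts and no probe set of it was called in any of the 6 comparisons. With 1415855_at, the probe set with the highest signal, untreated osteoblasts read 10759, 3348 and 4815 and treated osteoblasts 4812, 3322 and 3506. Untreated replicate 1 was the highest of them and the groups overlapped. The osteoblast change was -0.54 ± 0.41 (limma adjusted p = 0.818), and without that array it was -0.07. In endothelial cells the values were 5597, 6170, 5742 and 4639 untreated and 10234, 9480, 3209 and 6102 after G-CSF. The treated endothelial arrays lay on both sides of the untreated ones, from the lowest to the highest of the 8, and the change was 0.26 ± 0.36 (adjusted p = 0.93).

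The other 3 probe sets of Kitl had negative values in osteoblasts and values near 0 or above in endothelial cells. The osteoblast values were -0.49 ± 0.50 (1448117_at), -0.74 ± 0.34 (1426152_a_at) and -0.77 ± 0.36 (1415854_at), and the endothelial values were 0.39 ± 0.44, 0.06 ± 0.29 and 0.02 ± 0.31. The last 2 had an unadjusted limma p under 0.05 in osteoblasts (0.0445 and 0.0478, adjusted 0.604 and 0.617). The 4 probe sets read the same gene on the same arrays and are not independent. Their difference between the sorts ran from -0.88 to -0.78, and none passed. On endothelial G-CSF replicate 3 Kitl was the lowest of the 8 endothelial arrays with all 4 probe sets.

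Between the untreated sorts no Kitl difference was detected, with 1415855_at differing by 0.02 ± 0.38 (95% interval -0.80 to 0.83). After G-CSF all 4 probe sets had negative osteoblast differences, from -1.13 to -0.60 on the log2 scale, with limma adjusted p from 0.108 to 0.208. Without endothelial G-CSF replicate 3 the difference of 1415855_at became -1.13 with an adjusted p of 0.0297. That of 1448117_at, -1.13 ± 0.47 with all arrays, became -1.44 (0.0406). It also passed with median scaling (-1.41, adjusted p = 0.0429), with array weights (0.045) and without untreated osteoblast replicate 2 (0.0226). The last array is not in this comparison, and without it the difference stayed at -1.13 while its error became 0.336. With the decimals as a batch the differences shrank to -0.15 for 1415855_at, -0.42 for 1448117_at and -0.24 for 1426152_a_at (adjusted p = 0.859, 0.656 and 0.73).

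Dpp4, the peptidase that cuts CXCL12, was near the floor. Of its 4 probe sets only 1416697_at lay above the dimmest 33.3%. In untreated osteoblasts it read 81.6, 362 and 91.1, and after G-CSF 51.9, 71.3 and 43.3. The groups did not overlap, with untreated replicate 2 far above the others, and the change was -1.16 ± 0.57 (limma adjusted p = 0.638, exact p = 0.1). Without that array the change was -0.53. The same array held the highest neutrophil and B lineage means of its group, given above, and the part of these cells was not tested.

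In endothelial cells Dpp4 read 67.4, 168, 136 and 50.6 untreated and 29.4, 46.3, 166 and 67 after G-CSF. The groups overlapped and the change was -0.47 ± 0.49 (adjusted p = 0.895). The 3 dim probe sets of Dpp4 had intensities from 6.5 to 189, and 1459973_x_at also did not overlap between the osteoblast groups, again with untreated replicate 2 highest at 189. In osteoblasts 4 of the 14 members did not overlap between treated and untreated arrays, 2 of Cxcl12 and 2 of Dpp4, against 9.09% of all probe sets. In endothelial cells 1 did, against 7.51%. No Dpp4 probe set was called in any comparison.

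**Figure D4:**
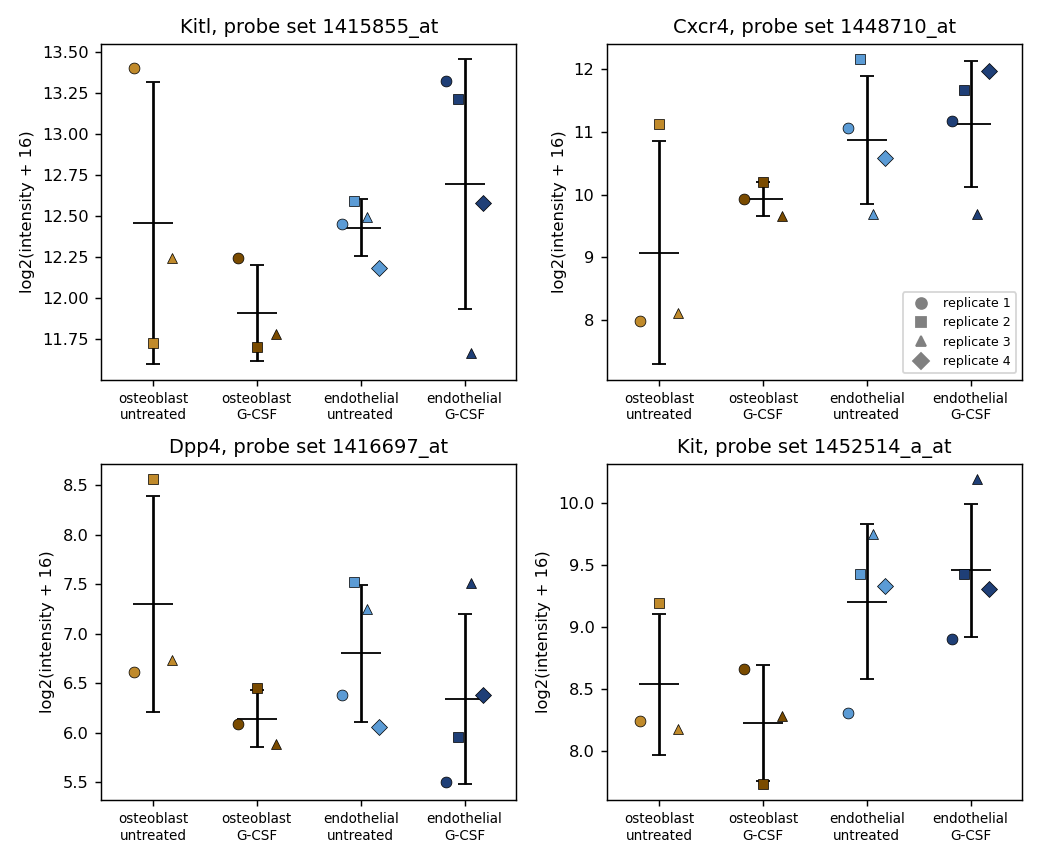
Signal of Kitl, Cxcr4, Dpp4 and Kit, each with its probe set of highest mean, as log2(intensity + 16) on the 14 arrays; points are arrays with the marker shape giving the replicate number, and bars are the mean and SD. Untreated osteoblast replicate 2 is the highest of its group for Cxcr4 (11.13), Dpp4 (8.56) and Kit (9.19) and the lowest for Kitl (11.72).

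Cxcr4, the receptor of CXCL12, was carried by 1 probe set, 1448710_at, and was not called in any comparison. Untreated osteoblasts read 238, 2227 and 260 and treated osteoblasts 963, 1157 and 792. The treated arrays lay between replicate 2 and the other untreated arrays. The change was 0.85 ± 0.74 (limma adjusted p = 0.844), and without untreated replicate 2 it was 1.88, with an adjusted p of 0.187. The 5 leukocyte markers averaged 8.35, 11.33 and 8.17 on those untreated arrays and 11.26, 10.95 and 10.12 on the treated ones. The 9 B lineage markers averaged 6.43, 9.02 and 7.07 on the untreated arrays and 6.15 to 6.50 on the treated ones. The part of these cells in the Cxcr4 signal was not tested.

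In the endothelial sort Cxcr4 read 2121, 4569, 814 and 1514 untreated and 2295, 3244, 815 and 3985 after G-CSF. The groups overlapped over nearly their whole range, and the change was 0.25 ± 0.64 (adjusted p = 0.974). The 9 B lineage markers, from cells that carry CXCR4, averaged 7.20 to 8.98 untreated and 5.74 to 7.34 after G-CSF in this sort. The 5 leukocyte markers averaged 9.10 to 10.19 untreated and 10.09 to 10.93 after G-CSF. They averaged 10.19 on untreated replicate 2, where Cxcr4 read 4569, and 10.84 on G-CSF replicate 3, where it read 815. The part of these cells in the endothelial Cxcr4 signal was not tested. Untreated osteoblasts read lower than untreated endothelial cells by -1.80 ± 0.69, which was not called (adjusted p = 0.0909). Untreated osteoblast replicate 2 lay closest to the endothelial arrays, and without it the difference was larger, at -2.83, and was called (adjusted p = 0.00218). With every array kept and array weights it was -2.21 and was called (adjusted p = 0.0243), while with the decimals as a batch it was -2.34 and was not (0.0857). After G-CSF the difference was -1.20 ± 0.69 (adjusted p = 0.26).

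Kit, the receptor of stem cell factor, was called lower in osteoblasts than in endothelial cells after G-CSF. With 1452514_a_at treated osteoblasts read 388, 197 and 295 and treated endothelial cells 461, 675, 1154 and 620. The groups did not overlap, and the log2 difference was -1.23 ± 0.37 (limma adjusted p = 0.0264, exact permutation p = 0.0571). The second probe set, 1415900_a_at, gave -1.45 ± 0.42 (limma adjusted p = 0.0206, exact permutation p = 0.0286) at intensities from 6.49 to 137. Both calls were lost without osteoblast G-CSF replicate 2 (adjusted p = 0.123 and 0.118) and without endothelial G-CSF replicate 3 (0.0786 and 0.0589). That of 1452514_a_at was also lost without osteoblast G-CSF replicate 3 (0.0641) or endothelial G-CSF replicate 2 (0.0528). With the actin 3′ to 5′ ratio, a measure of RNA quality, as a covariate the adjusted p were 0.133 and 0.118. With the decimals of the deposited values as a batch they were 0.109 and 0.229.

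Untreated osteoblasts read 286, 568 and 274 for Kit and untreated endothelial cells 302, 675, 845 and 628. These groups overlapped and the difference was -0.67 ± 0.37 (limma adjusted p = 0.257), while with replicate 2 of the untreated osteoblasts and replicate 1 of the untreated endothelial cells both left out it was -1.30 and was called (adjusted p = 0.0154). The G-CSF difference of Kit was -0.31 ± 0.40 in osteoblasts and 0.25 ± 0.35 in endothelial cells, with neither called (adjusted p = 0.909 and 0.931). The difference of these changes was -0.56 ± 0.53 (limma adjusted p = 1), so the sort difference is not shown to depend on G-CSF. Endothelial replicate 3 held the highest Kit value of its group both untreated (845) and treated (1154). Its blood progenitor and mast cell markers averaged 8.40 untreated, the lowest of a range up to 9.05, and 7.73 treated, within 7.63 to 9.56. Of the 11 genes of that list 2 were called lower in osteoblasts after G-CSF, against 21.8% of all genes called. The list median was -0.30. The 2 were Gata2 and Cd34, both also made by endothelium, at -3.12 ± 0.29 and -2.83 ± 0.26 (limma adjusted p = 2.18e-06 and 2.43e-06). The part of blood cells in the Kit signal was not tested.

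**Figure D5:**
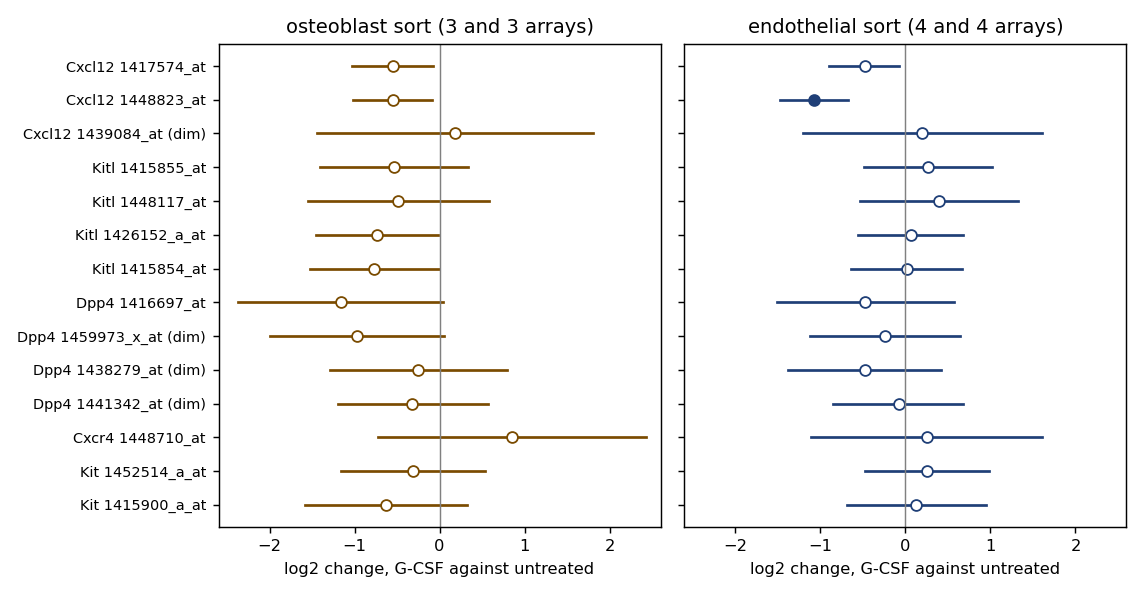
Log2 change after G-CSF of all 14 member probe sets with its 95% interval in the osteoblast sort (left) and the endothelial sort (right); filled points are called in limma at an adjusted p under 0.05. The 1 filled point is Cxcl12 1448823_at in endothelial cells (-1.08), and 12 of 14 osteoblast points lie below 0 against 6 of 14 endothelial points.

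In osteoblasts 12 of the 14 member changes were negative, with a median of -0.55, against 53.6% of all probe sets and a median of -0.03. In endothelial cells 6 of 14 were negative, with a median of 0.04, against 57.5% of all probe sets and a median of -0.06. Several probe sets read the same gene, so these are not 14 separate observations.

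The other genes of these pathways, 81 measured in 4 lists, gave few calls after G-CSF. With 1 value per gene, 0.132% of all genes were called in osteoblasts, 0.506% in endothelial cells, 1.35% for the mean over both sorts and 0.0055% for the difference. Ada, adenosine deaminase, rose in both sorts, by 1.87 ± 0.32 in osteoblasts and 1.66 ± 0.28 in endothelial cells (limma adjusted p = 0.0363 and 0.0181). The osteoblast call was lost with the replicate block, and of 14 fits that left out 1 array it was kept only without untreated osteoblast replicate 2, osteoblast G-CSF replicate 3 or endothelial G-CSF replicate 2. The endothelial call was lost without untreated endothelial replicate 3 or 4 or endothelial G-CSF replicate 1. Averaged over both sorts Mmp9, a matrix protease that frees soluble KITL, rose by 1.64 ± 0.34, and Gnai1, an inhibitory G protein subunit downstream of CXCR4, fell by 1.24 ± 0.29 (limma adjusted p = 0.0289 and 0.0493). Of 14 fits that left out 1 array the Gnai1 call was kept only without untreated osteoblast replicate 2 or untreated endothelial replicate 2. It was lost with median scaling and kept with the replicate block and with 1 probe set per gene. The Mmp9 call was lost with the replicate block, and without untreated osteoblast replicate 1 or 3, osteoblast G-CSF replicate 1, untreated endothelial replicate 3, or endothelial G-CSF replicate 1, 3 or 4. Mmp9 is also a neutrophil product, and the neutrophil markers averaged 13.45 to 14.19 on the treated arrays of both sorts and 11.07 to 14.38 on the untreated ones. Its part was not tested.

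Of the 19 genes of the CXCL12 list, 0 were called in either sort after G-CSF, and the list's median change was 0.30 in osteoblasts and 0.20 in endothelial cells. Of the 22 genes on the list of cleaving enzymes and the DPP family, Ada alone was called in each sort. Adenosine deaminase, though on that list, is neither a peptidase nor a member of the DPP family. In endothelial cells the value was -2.05 ± 0.57 for Fap, a peptidase of the DPP family made by fibroblasts, and -2.24 ± 0.67 for Mmp2, a matrix protease, both uncalled (adjusted p = 0.129 and 0.166). Of the 27 genes of KIT signalling 0 were called in either sort. Of the 14 stromal regulators of Cxcl12 and Kitl 0 were called, with medians of -0.18 and -0.26, the largest negative endothelial values being Pdgfra (-1.99 ± 0.45, adjusted p = 0.064) and Vdr (-1.88 ± 0.46, adjusted p = 0.0809). Without untreated osteoblast replicate 2 the osteoblast count over the 81 genes became 9 higher and 1 lower, against 2.11% of all genes called. The endothelial count became 4 higher and 3 lower, against 1.63%. That array is not in the endothelial comparison, so the endothelial changes stayed the same and only the estimate of spread differed. With the replicate block the count over the 81 genes became 0 in osteoblasts (0.0934% of all genes called). It became 2 higher and 7 lower in endothelial cells (2.36%). Fap, Mmp2, Pdgfra, Vdr and Prrx1 were among the genes called there.

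Between the untreated sorts 15 of the 81 genes were higher in osteoblasts and 8 lower, against 17.6% of all genes called. Ackr3, the scavenging receptor of CXCL12, was lower in osteoblasts by -1.80 ± 0.31 (adjusted p = 0.000807), as were Grk5, a kinase that turns off receptors of this class (-2.16 ± 0.26), and Arrb1, an arrestin (-2.04 ± 0.40). Cxcl14, a chemokine that binds CXCR4, was higher by 2.41 ± 0.34. Of the 14 stromal regulators 7 were higher and none lower, among them Foxc1, a transcription factor of reticular cells (2.00 ± 0.29), Lepr, the leptin receptor that marks them (1.61 ± 0.31), Prrx1 (1.93 ± 0.34) and Vdr, the vitamin D receptor (2.86 ± 0.49). Of the KIT list 4 were higher and 4 lower, with Gata2 at -2.61 ± 0.29, Tal1 at -1.12 ± 0.31 and Lmo2 at -1.09 ± 0.33, all transcription factors of blood and endothelial cells. Without untreated osteoblast replicate 2 the counts were 17 higher and 19 lower, while 23% of all genes were called in that fit.

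The genes whose log2 values ran most like each member over the 14 arrays were listed from 12825 genes, as a description with no test, since all points share their arrays and groups. For Cxcl12 (1417574_at) they were Zfp956 (Pearson r = 0.927), Gas6, a ligand of TAM receptors (0.923), Ebf3, a transcription factor of reticular cells (0.889), Esm1 (0.873) and Diras2 (0.871). For Kitl they were Abr (0.884), Amotl2 (0.867), Spag9 (0.857), Hars2 (0.842) and Sntb1 (0.840), and for Dpp4 Cd22, a B cell receptor (0.881), Tmem131l (0.870), Lhpp (0.868), Prkcsh (0.856) and Akr1c13 (0.853). For Cxcr4 they were Psmc3 (0.944), Vps37b (0.938), Crcp (0.903), Hopx (0.895) and Hsd17b11 (0.894), and for Kit Dnah6 (0.915), Psen2 (0.908), Kat7 (0.901), Carhsp1 (0.881) and 9130008F23Rik (0.879). By Spearman correlation 2, 3, 2, 1 and 1 of these 5 were again in the top 5 of Cxcl12, Kitl, Dpp4, Cxcr4 and Kit.
Over deviations from the group means, which leave out differences between groups, the closest genes were Rps6kl1 for Cxcl12 (0.915), Agmo for Kitl (0.944), Mast3 for Dpp4 (0.970), Psmc3 for Cxcr4 (0.942) and Upp1 for Kit (0.883).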

How the data were processed

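Total RNA of sorted marrow osteoblasts and endothelial cells was measured on 14 arrays in 4 groups taken from the labels. The deposited values are linear intensity values, 1 per probe set, made by the authors with Affymetrix Expression Console 1.1 per the submitters' processing notes; how probes were summarised is not given in the sources used here. On each array the mean without the outer 2% at each end was 500, so the values were not scaled again. Of 45101 probe sets, 64 controls, 932 with several symbols and 9160 with none were left out. Log2(intensity + 16) of the other 34945 was fitted in limma 3.58.1 (R 4.3.3, trended eBayes, 2-sided, 4 group means, no dimness filter), and a call is an adjusted p under 0.05. Gene lists used 1 averaged value per gene. A total of 70 exact permutation tests of member probe sets exchanged arrays between groups, within each sort for the mean over both. Errors of changes are SE. Platform symbols came from the array's annotation, and all 5 members matched RefSeq.

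The scripts were tested on simulated data. The members, lists, alternatives and rules were chosen with earlier results of these data known. Named genes were all member probe sets, called or largest list genes, the 5 closest genes by correlation, and markers that moved with a member. Same-numbered osteoblast arrays deviated together (correlations 0.283 to 0.313 over probe sets). The labels do not say what the numbers mean, and the main fit and the exact tests treated all arrays as unpaired. Only the replicate block, an alternative, paired arrays of the same number, and it did so in both sorts. Actin 3′ to 5′ ratios ran from 2.62 to 11 and those of GAPDH from 5.88 to 20.9. Alternatives were 2 pseudocounts, 2 scalings, a dimness filter, gene means, other variance priors, array weights, the replicate block, the actin ratio, single arrays left out and, chosen after seeing the data, the decimals as a batch.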

Additional observations from a re-analysis of the deposited data

Results flagged for a closer look

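The Cxcl12 signal of 1448823_at on endothelial G-CSF replicate 1 was 12.60 on the log2 scale, above the other arrays of its group, at 12.25, 12.22 and 12.27. The gap to the nearest of them, as a share of the group's range, passed Dixon's critical value for 4 arrays. It was the only such array in 30 groups of values tested. Chance gives about 1 in every 20 groups, so 1 in 30 is no more than chance would give. Without it the endothelial change was -1.16 (limma adjusted p = 0.0314).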

How the results depend on the processing

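The number of arrays and the spread between them limit the members: in osteoblasts no exact test of 3 against 3 arrays can go below 0.1. The count of called members was 0 under every alternative for G-CSF in osteoblasts and for the difference between the sorts. For G-CSF in endothelial cells it was 0 to 1 with single arrays left out, and 0 at a threshold of 0.01. For the mean over both sorts it was 1 to 2 with single arrays left out, 2 with the replicate block and 0 at 0.01. For the untreated sorts it was 1 to 2 with single arrays left out, 2 with array weights and 3 when replicate 2 of the untreated osteoblasts and replicate 1 of the untreated endothelial cells were both left out. After G-CSF it was 1 to 4 with single arrays left out, 1 with the actin ratio, 1 with the decimals as a batch and 1 at 0.01. In the unaltered fit 0.0687% of all probe sets were called for G-CSF in osteoblasts, 0.446% in endothelial cells and 0.950% for the mean. Between the sorts 17.0% were called untreated and 20.8% after G-CSF, and these shares also moved with the setting. Without untreated osteoblast replicate 2, 4350 probe sets were called higher and 3302 lower between the untreated sorts, and 4970 and 3336 after G-CSF. That array is not in the comparison after G-CSF and acts there only through the estimate of spread. With the actin ratio the sorts after G-CSF gave 3657 and 2388. The replicate block, run for the G-CSF comparisons only, changed no other call of a member there, and over all probe sets it raised the endothelial count from 45 higher and 111 lower to 151 and 588, and that of the mean over both sorts from 177 and 155 to 389 and 557. Same-numbered endothelial arrays correlated at 0.0816 to 0.333 in their deviations, and differently numbered ones at -0.235 to 0.168. The block paired arrays by number in both sorts, while the main fit paired them in neither. Each leave-one-out fit also had fewer arrays, and the causes of the lost calls were not tested.

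The values that changed sign were all uncalled, with these ranges over single arrays left out. G-CSF in osteoblasts: Kitl 1448117_at -1.19 to 0.09 and Kit 1452514_a_at -0.53 to 0.02. G-CSF in endothelial cells: Kitl 1426152_a_at -0.08 to 0.32, Cxcr4 -0.14 to 0.73, Kit 1452514_a_at -0.05 to 0.44 and Kit 1415900_a_at -0.12 to 0.31. Mean over both sorts: Kitl 1415855_at -0.32 to 0.10, Kitl 1448117_at -0.40 to 0.24 and Kit 1452514_a_at -0.18 to 0.13. Difference between the sorts: Cxcl12 1417574_at -0.20 to 0.07. Untreated sorts: Kitl 1415855_at -0.45 to 0.39, Kitl 1448117_at -0.82 to 0.46, Kitl 1426152_a_at -0.16 to 0.51 and Dpp4 1416697_at -0.13 to 0.85. Sorts after G-CSF: Dpp4 1416697_at -0.47 to 0.19. Without the 2 untreated arrays together, Kit 1452514_a_at was 0.02 in osteoblasts and -0.05 in endothelial cells, Kit 1415900_a_at -0.12 in endothelial cells, and in the untreated sorts Kitl 1448117_at 0.43 and Dpp4 -0.27. With median scaling the mean over both sorts was 0.04 for Kitl 1448117_at and 0.06 for Kit 1452514_a_at, and the untreated difference of Kitl 1415855_at was -0.13. Kitl 1448117_at between untreated sorts was 0.10 with array weights and 0.46 with the decimals as a batch. With gene means it was 0.02, the difference between the sorts was 0.14 for Cxcl12, and Dpp4 after G-CSF was 0.17. With the actin ratio Dpp4 after G-CSF was 0.26 and the endothelial change of Kit 1415900_a_at was -0.05.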
